A study of Mus musculus with 6 samples.

Results

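The liver clears bile pigments, hormones, retinoids, drugs and dietary aldehydes with enzymes that attach a sugar, a sulfate or glutathione to a molecule, split its esters, or oxidise its alcohol and aldehyde groups. The genes described here are those of the deposited liver table whose symbol starts with Ugt, Gst, Sult, Ces, Fmo, Adh, Aldh or Akr followed by a letter or digit, without pseudogenes and without Aldh1l2. The rule used no measured value and gave 21 of the 3542 genes of the table: 5 Ugt, 3 Gst, 3 Sult, 4 Ces, 1 Adh and 5 Aldh genes, and 0 Fmo and 0 Akr genes. The GENCODE M21 annotation of GRCm38 lists 137 protein-coding genes under the same 8 prefixes, and those outside the table were not analysed here.

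The libraries were mRNA-seq of liver tissue from 3 Mul1(+/+) and 3 Mul1(-/-) mice, in which Mul1, a ubiquitin ligase of the outer mitochondrial membrane, is targeted in the whole body. Both genotypes had been fed a high-fat diet (HFD) for 16 weeks from young adulthood, so the comparison is of genotype on HFD, and no library from mice on normal diet was used here. The knockout mice came from crosses of heterozygotes, mice of both sexes were used in the study, and neither the sex nor the litter of the 6 liver donors is given. The labels name hepatocytes as the cell type, whereas whole tissue was sequenced. In such bulk samples, fewer cells of a type and less RNA per cell cannot be told apart.

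Values are normalized read counts, that is, reads of a gene divided by 1 factor per library, and 1 read was worth 0.817 to 1.46 of these units. Between 11932163 and 15385822 reads per library fell on the genes listed. Every gene of the table had been selected by the authors' own test on these 6 libraries, which also required a fold change, so a change of a member is not independent evidence and the counts below are set beside those of the whole table. Mul1 itself was 3172, 3232 and 3423 in Mul1(+/+) replicates 1, 2 and 3 against 1037, 965 and 1753 in the same order in Mul1(-/-) (log2 fold change −1.44, SE 0.40, adjusted p = 0.0126 in limma). Reads of the targeted gene thus remained in each knockout library, at 38.2% of the Mul1(+/+) mean and highest in replicate 3, and its difference did not pass the threshold used for calls. The study followed MUL1 protein in liver by Western blot and describes MUL1 expression as absent in these knockout mice. Read counts do not show whether protein was made.

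UDP-glucuronosyltransferases (UGTs) transfer glucuronic acid or another sugar from a UDP-sugar, glutathione S-transferases (GSTs) add glutathione to electrophiles, and sulfotransferases (SULTs) add sulfate from the donor PAPS. Carboxylesterases (CESs) split ester and amide bonds of drugs and lipids, alcohol dehydrogenases (ADHs) oxidise alcohols such as retinol and ethanol, and aldehyde dehydrogenases (ALDHs) turn the resulting aldehydes into acids. Several of these families lie as clusters of duplicated genes whose members have their own patterns of expression in liver.

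A member was called changed where limma gave an adjusted p-value below 0.01 and the log2 fold change was beyond 1 in either direction, on log2(normalized count + 1). Of the 21 members, 9 were higher and 12 were lower in Mul1(-/-), where 56.8% of the table was higher and 43.2% lower, and 7 passed the threshold. The 3 that rose were Sult1e1, Gsta1 and Ugt8a, against 16.7% of the 3542 genes called higher. The 4 that fell were Gstt3, Ces1e, Ugt1a5 and Ugt1a1, against 7.43% of the table called lower. In either direction 24.1% of the table was called, and no p-value was computed for the members as a list. All 21 members had groups that did not overlap (9 higher and 12 lower), which was also so for 90.3% of the table (49.3% higher and 41.0% lower), so that count is not a result about the members. An exact two-sided permutation test of any 1 of them gave p = 0.1, the smallest that 3 against 3 libraries allow. The median log2 fold change of the members was −1.27 and that of the table was 1.12. Because the table was selected with a fold change, each median mostly reflects which direction was more frequent. The gap between them is therefore not a further result about the members. At an adjusted p-value under 0.05, 20 of the 21 members passed, against 96.3% of the table, and the exception was Aldh1l1.

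The 7 calls depended on the set of libraries. With Mul1(+/+) replicate 1, 2 or 3 or Mul1(-/-) replicate 2 left out, 0 members passed in limma, and the adjusted p-values of the 7 were between 0.0137 and 0.0433, while 17, 16, 16 and 16 members had an unadjusted p-value under 0.05. In the same order, 69.8%, 85.8%, 71.0% and 77.4% of the table had such a p-value, and at most 1.3% of the table was called. Without Mul1(-/-) replicate 1, 6 members passed, against 17.8% of the table, and without Mul1(-/-) replicate 3, 16 passed, against 75.5% of the table, so these shifts were shared with the table. Each of the 21 members kept its direction in all of these fits, which was fixed in advance because their groups did not overlap.

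**Figure D1:**
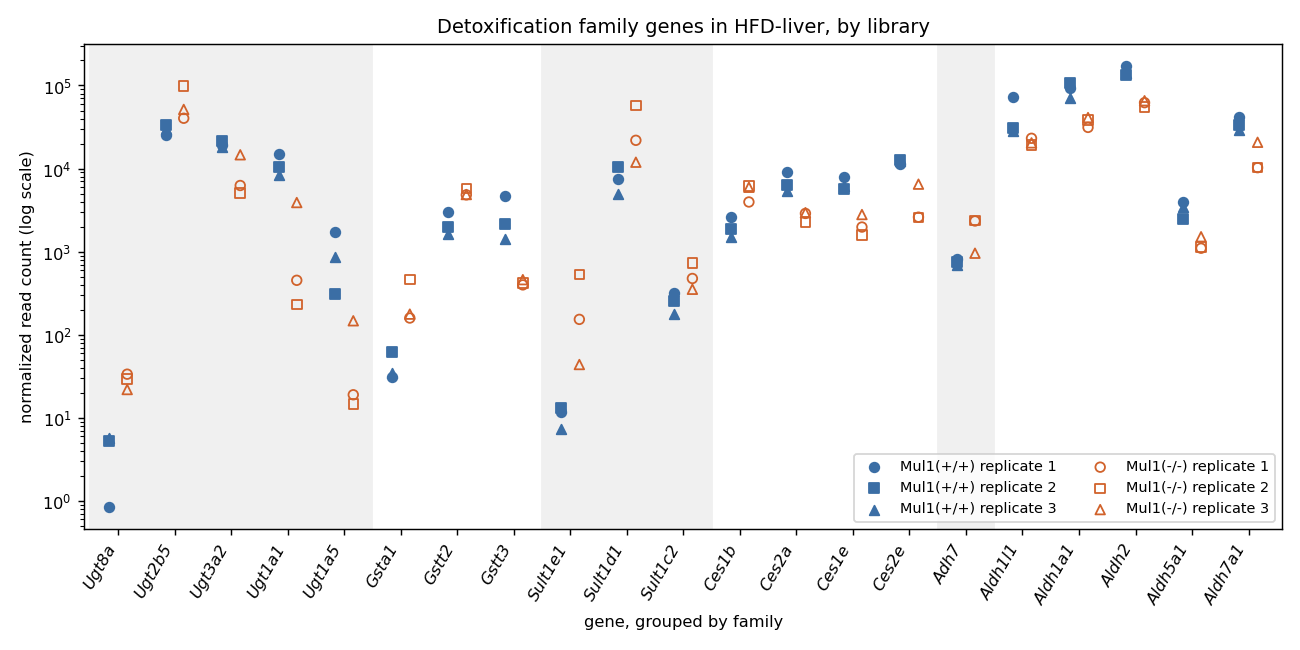
Normalized count of each of the 21 members in each library, on a log axis, with 3 Mul1(+/+) and 3 Mul1(-/-) libraries a gene. Levels run from 0.84 for Ugt8a to 171389 for Aldh2, both in Mul1(+/+) replicate 1, and the groups of each gene lie apart.

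**Figure D2:**
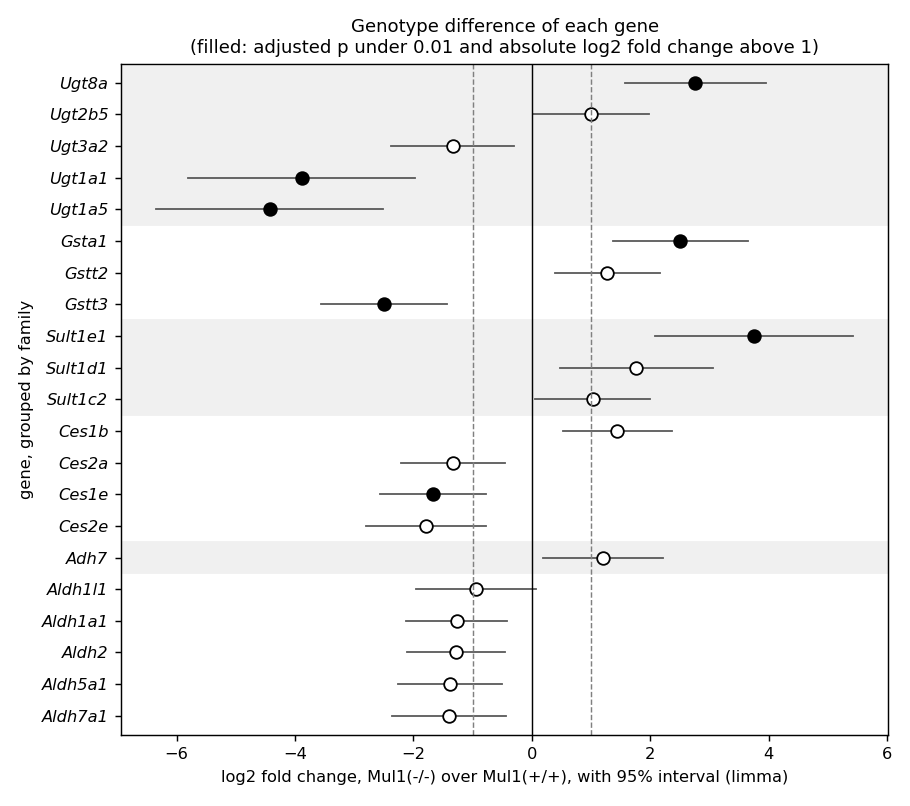
Log2 fold change of Mul1(-/-) against Mul1(+/+) for each member with its 95% interval from limma, on log2(normalized count + 1), 3 libraries a group. Filled points are the 3 members that rose and the 4 that fell past the threshold; the interval of Aldh1l1 spans 0.

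The widest falls were those of a pair of glucuronosyltransferases from 1 locus. Ugt1a1, the enzyme that conjugates bilirubin, was 15151, 10545 and 8328 in Mul1(+/+) replicates 1, 2 and 3, and in the same order 453, 231 and 3905 in Mul1(-/-), as for all genes that follow. Its mean went from 11341 ± 3481 to 1529.8 ± 2059.8 (SD, n = 3 each), which is 13.5% of the Mul1(+/+) mean (log2 fold change −3.89, SE 0.86, adjusted p = 0.00797). Ugt1a5, made from another first exon of the same locus, was 1723, 312 and 869 in Mul1(+/+) and 19.0, 14.7 and 148 in Mul1(-/-), or 6.24% of the Mul1(+/+) mean (log2 fold change −4.43, SE 0.86, adjusted p = 0.00692). For both genes Mul1(-/-) replicate 3 lay highest of the knockout libraries, and without it the log2 fold changes were −5.08 for Ugt1a1 and −5.45 for Ugt1a5. Without Mul1(+/+) replicate 2 that of Ugt1a5 was −5.09. Without Mul1(-/-) replicate 2 they were −3.05 for Ugt1a1 and −3.83 for Ugt1a5, and neither gene then passed the threshold, as stated above for all members.

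Ugt1a5 (ENSMUSG00000089943, chromosome 1:88166012-88218997, plus strand) and Ugt1a1 (ENSMUSG00000089960, chromosome 1:88211959-88218997, plus strand) end at the same base in GRCm38 because transcripts of this locus splice different first exons to common later exons. On the same strand, 59.5% of the exonic bases of Ugt1a5 and 58.9% of those of Ugt1a1 were shared with other annotated genes, so reads could not be divided between them with certainty and the values may hold reads of other members of the locus. The ratio of Ugt1a5 to Ugt1a1 was 0.114, 0.0296 and 0.104 in Mul1(+/+) and 0.0419, 0.0635 and 0.0378 in Mul1(-/-), so the groups overlapped.

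The 250 bases before each first exon are shown to set the separate starts of these 2 genes side by side, 5′ to 3′ on the plus strand, from RefSeq on GRCm38.p6. The windows are chr1:88165762-88166011 for Ugt1a5 and chr1:88211709-88211958 for Ugt1a1. Capitals mark GCGTG, the core of the dioxin response element, in Ugt1a5, and the Ugt1a1 window held none of the letters searched.
Ugt1a5: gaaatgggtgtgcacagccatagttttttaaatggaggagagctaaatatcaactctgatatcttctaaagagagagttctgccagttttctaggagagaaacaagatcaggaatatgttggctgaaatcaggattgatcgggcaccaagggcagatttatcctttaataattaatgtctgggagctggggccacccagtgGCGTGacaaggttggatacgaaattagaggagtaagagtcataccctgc
Ugt1a1: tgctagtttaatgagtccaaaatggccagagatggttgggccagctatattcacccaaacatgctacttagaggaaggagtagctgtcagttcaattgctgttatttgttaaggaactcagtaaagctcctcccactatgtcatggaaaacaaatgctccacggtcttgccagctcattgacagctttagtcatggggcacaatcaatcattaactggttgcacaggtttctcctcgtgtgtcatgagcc

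Letters were searched on both strands in all 32851 promoter windows of the same length, and GCGTG stood in 28.2% of them. Windows were found for 17 of the 21 members, 20 windows in all, of which 3 held GCGTG, 4 the nuclear receptor half-site AGGTCA (14.0% of all windows) and 1 TATAAA (12.4%). The antioxidant response element core TGACNNNGC (10.2% of all windows) and the HNF4 core CAAAGTCCA (0.384%) were in 0 of the 20. A match is a description of these letters and not a bound site.

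Among the other UGTs, Ugt8a, the ceramide galactosyltransferase better known from myelin, rose from a few reads (ENSMUSG00000032854, chromosome 3:125865271-125938619, minus strand). Its normalized counts were 0.840, 5.31 and 5.72 in Mul1(+/+) and 33.6, 29.4 and 22.0 in Mul1(-/-), which stand for 1, 6 and 7 reads and for 23, 24 and 25 reads. Its mean was 7.16-fold higher in Mul1(-/-) (log2 fold change 2.76, SE 0.54, adjusted p = 0.00692), and the log2 fold change was 2.15 without Mul1(+/+) replicate 1, the library with 1 read. Ugt3a2, which uses UDP-sugars other than glucuronic acid, was 19127, 21779 and 18091 in Mul1(+/+) and 6263, 5079 and 14663 in Mul1(-/-), with replicate 3 between the other knockout libraries and the controls (log2 fold change −1.34, SE 0.47, adjusted p = 0.023). It did not pass the threshold. Ugt2b5, an abundant hepatic UGT of steroids and drugs, was 25232, 33877 and 30100.1 in Mul1(+/+) and 40340.2, 98795 and 51521 in Mul1(-/-), 2.14-fold higher in the mean (95% interval of the log2 fold change 0.02 to 1.98, adjusted p = 0.0489), and did not pass. Before division by the library factor its reads were 29937, 38254 and 36857 in Mul1(+/+) and 27608, 80670 and 58662 in Mul1(-/-), so the lowest knockout library then lay below every control. With library factors set by the median of ratios over the table, its log2 fold change was 0.34 (adjusted p = 0.432). Of the 50-base stretches of its transcripts, 41.7% also occur in other genes, so its counts are uncertain. Reads were also compared for the other higher members, and Ces1b, Gstt2 and Sult1c2 overlapped between the groups on that scale, while the 12 lower members did not. However, 1 read was worth 1.46 and 1.22 units in Mul1(-/-) replicates 1 and 2 and at most 0.886 in Mul1(+/+). Reads therefore place these 2 knockout libraries lower against the controls, and this contrast of higher and lower members is not a result about the members.

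In the GST family, a pair of theta class genes went in opposite directions. Gstt3 fell, with normalized counts of 4633, 2153 and 1405 in Mul1(+/+) and 399, 419 and 461 in Mul1(-/-), or 15.6% of the Mul1(+/+) mean (log2 fold change −2.50, SE 0.48, adjusted p = 0.00692). Gstt2 was 2984, 1959.8 and 1630.1 in Mul1(+/+) and 4832, 5738 and 4876 in Mul1(-/-), 2.35-fold higher in the mean, and did not pass the threshold (log2 fold change 1.27, SE 0.40, adjusted p = 0.0171). The 3 knockout values of Gstt3 lay close together, from 399 to 461, whereas its control values were spread over 1405 to 4633. The ratio of Gstt3 to Gstt2 within a library does not depend on the library factor, and it was 1.55, 1.10 and 0.862 in Mul1(+/+) and 0.0826, 0.0730 and 0.0946 in Mul1(-/-). Both genes lie on the minus strand of chromosome 10 in GRCm38, Gstt3 (ENSMUSG00000001665) at 75774115-75781414 and Gstt2 at 75831114-75837424, 49.7 kb apart with Gstt1 and Gstt4 between them. Gstt3 shared 26.0% of its 50-base stretches with other genes, among them Gm20441.

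Gsta1, an alpha class GST that acts on lipid peroxidation products, rose from 31.2, 62.9 and 34.3 in Mul1(+/+) to 159, 463 and 177 in Mul1(-/-) and was 6.23-fold higher in the mean (log2 fold change 2.50, SE 0.51, adjusted p = 0.00701). The gene (ENSMUSG00000074183) lies at chromosome 9:78230656-78242684 on the plus strand. Mul1(-/-) replicate 2 was highest and the lowest knockout library was still above every control. Of its 50-base stretches, 89.7% also occur in other genes, mainly Gm3776 with 82.9%, so reads of these near-identical copies could not be assigned to Gsta1 with certainty.

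All 3 sulfotransferases were higher in Mul1(-/-), and Sult1e1 passed the threshold. Sult1e1, which inactivates estrogens by sulfation, was 11.8, 13.3 and 7.35 in Mul1(+/+) and 153, 535 and 43.9 in Mul1(-/-), from 14, 15 and 9 reads and from 105, 437 and 50 reads. Its mean was 22.6-fold higher in Mul1(-/-) (log2 fold change 3.75, SE 0.76, adjusted p = 0.00697), the widest rise among the members. The knockout libraries differed among themselves by more than the distance from the lowest of them to the controls, and the log2 fold change was 2.85 without replicate 2 and 4.64 without replicate 3.

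Sult1d1, a sulfotransferase of catecholamines, was 7517, 10330.4 and 4900.0 in Mul1(+/+) and 21903, 57104 and 11935 in Mul1(-/-) (log2 fold change 1.76, SE 0.58, adjusted p = 0.0196). Sult1c2, a phenol sulfotransferase, was 316, 256 and 180.5 in Mul1(+/+) and 476, 734 and 353 in Mul1(-/-) (log2 fold change 1.02, SE 0.44, adjusted p = 0.0424). Without Mul1(-/-) replicate 2 the log2 fold change of Sult1d1 was 1.16 (adjusted p = 0.0619), and without replicate 3 it was 2.29 (adjusted p = 0.00278), past the threshold. In all 3 genes Mul1(-/-) replicate 2 was highest and replicate 3 lowest of the knockout libraries. The ratio of Sult1e1 to Sult1d1 was 0.00157, 0.00129 and 0.00150 in Mul1(+/+) and 0.00700, 0.00937 and 0.00368 in Mul1(-/-), so Sult1e1 gained on its neighbour in each knockout library.

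Sult1d1 (chromosome 5:87554645-87569027) and Sult1e1 (ENSMUSG00000029272, chromosome 5:87575969-87591594) lie 6.94 kb apart on the minus strand with no protein-coding gene between them. Their promoter windows are shown because these neighbours were both higher, 5′ to 3′ on the minus strand of GRCm38.p6 from RefSeq, chr5:87569007-87569256 for Sult1d1 and chr5:87591612-87591861 for Sult1e1. Capitals mark CACGC, the reverse complement of GCGTG, in Sult1d1, and TGACCT, the reverse complement of AGGTCA, in Sult1e1. The windows had no searched motif in common.
Sult1d1: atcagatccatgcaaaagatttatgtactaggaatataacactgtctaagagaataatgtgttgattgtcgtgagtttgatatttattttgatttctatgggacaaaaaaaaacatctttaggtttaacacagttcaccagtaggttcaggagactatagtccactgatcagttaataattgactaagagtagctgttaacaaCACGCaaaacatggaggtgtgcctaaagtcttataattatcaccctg
Sult1e1: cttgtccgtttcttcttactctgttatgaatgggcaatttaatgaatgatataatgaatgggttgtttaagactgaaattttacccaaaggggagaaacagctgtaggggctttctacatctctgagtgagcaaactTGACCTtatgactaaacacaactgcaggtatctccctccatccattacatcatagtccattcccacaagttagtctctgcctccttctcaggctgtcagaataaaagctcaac

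Of the 4 carboxylesterases, 3 were lower and 1 was higher in Mul1(-/-). Ces1e, a liver esterase of the endoplasmic reticulum, fell from 7976, 5683 and 6163 in Mul1(+/+) to 1979.9, 1581 and 2799.9 in Mul1(-/-), or 32.1% of the Mul1(+/+) mean (log2 fold change −1.66, SE 0.40, adjusted p = 0.00933). Ces1b, a gene of the same cluster, was 2617, 1887 and 1485 in Mul1(+/+) and 3966, 6223 and 5963 in Mul1(-/-), 2.70-fold higher in the mean without passing the threshold (log2 fold change 1.44, SE 0.41, adjusted p = 0.0135). Ces1e exceeded Ces1b in each control and lay below it in each knockout library: the ratio of Ces1e to Ces1b was 3.05, 3.01 and 4.15 in Mul1(+/+) and 0.499, 0.254 and 0.470 in Mul1(-/-). Ces1e (ENSMUSG00000061959, chromosome 8:93201218-93229619) and Ces1b lie 121 kb apart on the minus strand, with Ces1c and Ces1d between them, and Ces1b shared 11.6% of its 50-base stretches with other genes, among them Ces1c.

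The CES2 enzymes, which prefer esters with small acyl groups and also act on glycerides, were both lower. Ces2e was 11456, 12853 and 12225 in Mul1(+/+) and 2604, 2594 and 6497 in Mul1(-/-) (log2 fold change −1.79, SE 0.46, adjusted p = 0.0107). Ces2a was 9085, 6374 and 5436 in Mul1(+/+) and 2887, 2289 and 2945 in Mul1(-/-) (log2 fold change −1.34, SE 0.39, adjusted p = 0.0145). Neither passed the threshold, and the value of Ces2e in Mul1(-/-) replicate 3 was more than those of the other 2 knockout libraries together. The ratio of Ces2e to Ces2a was 1.26, 2.02 and 2.25 in Mul1(+/+) and 0.902, 1.13 and 2.21 in Mul1(-/-) and overlapped. The sum of the 4 CES members was 27746 ± 3026 in Mul1(+/+) and 14109 ± 3601 in Mul1(-/-) (SD, n = 3).

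The 5 aldehyde dehydrogenases were all lower in Mul1(-/-) and 0 passed the threshold, with adjusted p-values from 0.0133 to 0.0662 and unadjusted p-values from 0.00543 to 0.0646 in limma. In limma 4 of the 5 had an unadjusted p-value under 0.05, and limma-trend, which lets the prior variance follow the level, called 4, against 96.4% and 52.8% of the table. Aldh2, the mitochondrial enzyme that clears acetaldehyde, was 171389, 132177 and 140134 in Mul1(+/+) and 62103, 55052 and 65551 in Mul1(-/-), or 41.2% of the Mul1(+/+) mean (log2 fold change −1.27, SE 0.37, adjusted p = 0.0142). Aldh1a1, a cytosolic enzyme that makes retinoic acid from retinaldehyde, was 92234, 107153 and 70863 in Mul1(+/+) and 31320.3, 38641 and 41120.0 in Mul1(-/-), or 41.1% of the Mul1(+/+) mean (log2 fold change −1.27, SE 0.39, adjusted p = 0.0155). These were the 2 most abundant members per length in Mul1(+/+), and their ratio overlapped between the groups, with a mean of 0.618 in Mul1(+/+) and 0.611 in Mul1(-/-). Of the 50-base stretches of Aldh1a1, 6.54% also occur in other genes, among them Aldh1a7.

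The other 3 act in amino acid and folate metabolism. Aldh5a1, which oxidises succinic semialdehyde from GABA, was 3986, 2469 and 3459 in Mul1(+/+) and 1102, 1135 and 1514 in Mul1(-/-) (log2 fold change −1.39). Aldh7a1, an enzyme of lysine breakdown, was 41848, 33093 and 29032 in Mul1(+/+) and 10268, 10265 and 20729 in Mul1(-/-) (log2 fold change −1.40). Aldh1l1, the 10-formyltetrahydrofolate dehydrogenase, was 73046, 30846 and 28728 in Mul1(+/+) and 23154, 19298 and 20399 in Mul1(-/-) (log2 fold change −0.94, SE 0.46, adjusted p = 0.0662). The mean of Aldh1l1 rested on Mul1(+/+) replicate 1, without which its log2 fold change was −0.51 (adjusted p = 0.336). The sum of the 5 ALDH members was 382502, 305738 and 272216 in Mul1(+/+) and 127946, 124391 and 149313 in Mul1(-/-). The sum over all 21 members was 423182 ± 64144 in Mul1(+/+) and 260643 ± 46050 in Mul1(-/-) (SD, n = 3). The ALDH members made up most of it in each library except Mul1(-/-) replicate 2, where the sum over all members was 308589.

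Adh7, a class IV alcohol dehydrogenase that oxidises retinol and is best known from the stomach, was the 1 ADH gene of the table. It was 828, 759 and 696 in Mul1(+/+) and 2344, 2369.8 and 959 in Mul1(-/-), 2.48-fold higher in the mean (log2 fold change 1.20, SE 0.45, adjusted p = 0.0286). Mul1(-/-) replicate 3 lay near the controls and the other knockout libraries near each other, and without replicate 3 the log2 fold change was 1.63 (adjusted p = 0.00248), past the threshold.

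**Figure D3:**
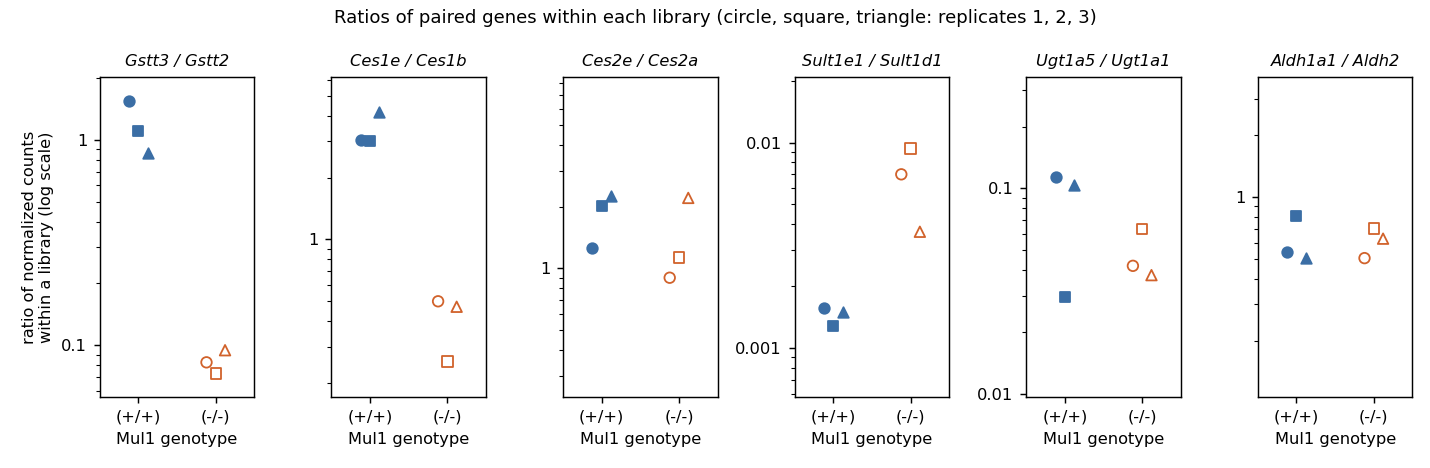
Ratio of 2 genes within each library for 6 pairs of members, on log axes, with Mul1(+/+) and Mul1(-/-) libraries side by side and a symbol per replicate. The groups lie apart for Gstt3 to Gstt2, Ces1e to Ces1b and Sult1e1 to Sult1d1 and overlap for the other 3 pairs. For Gstt3 to Gstt2 and Ces1e to Ces1b this was fixed in advance, since the groups of each gene lay apart in opposite directions.

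Levels of different genes were compared as normalized counts per kb of the longest coding transcript. In Mul1(+/+), Aldh2 (38247 per kb) and Aldh1a1 (38203 per kb) stood first and their libraries overlapped, and Ugt2b5 followed with 16005 and Aldh1l1 with 10588 per kb. In Mul1(-/-), Ugt2b5 stood first with 34205 per kb, ahead of Aldh2 with 15749 and Aldh1a1 with 15703. Sult1d1 went from rank 11 (3133 per kb) to rank 4 (12527 per kb, or 6991 per kb and still rank 4 without Mul1(-/-) replicate 2), and Ugt1a1 from rank 7 to rank 13. Without Mul1(-/-) replicate 3, Sult1d1 stood at rank 2 with 16324 per kb. In that library it had 4932 per kb, below Ugt3a2 with 6296 and Aldh7a1 with 5018, so its rank differed between knockout libraries. At the low end, Gsta1 had 48.9, Sult1e1 8.70 and Ugt8a 1.05 per kb in Mul1(+/+), and the libraries of these 3 did not overlap with one another. The ranges of neighbours in the Mul1(+/+) order were apart after Aldh1a1, Aldh7a1, Gstt2, Adh7, Sult1c2, Gsta1 and Sult1e1, and the other neighbours overlapped.

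The knockout libraries did not differ from the controls to the same degree. Mul1(-/-) replicate 3 was the knockout library nearest to the Mul1(+/+) mean in 16 of the 21 members, and replicate 2 was the farthest in 17. Over the 3542 genes, replicate 3 was nearest in 67.3% and replicate 2 farthest in 61.9%, so this order is shared with the table. Among the 12 lower members replicate 3 was nearest in 11. In the direction of each member's change, the median difference from the Mul1(+/+) mean on the log2 scale was 1.63 in replicate 1, 1.74 in replicate 2 and 1.16 in replicate 3.

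**Figure D4:**
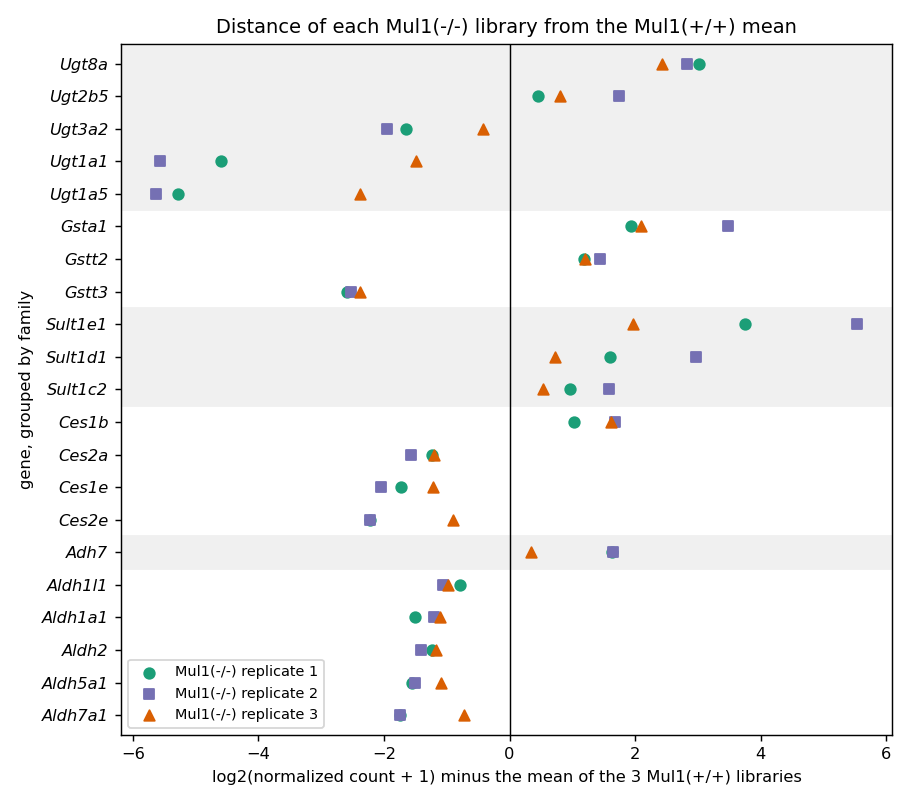
Difference of each knockout library from the Mul1(+/+) mean on the log2 scale, for each member. Replicate 3 is nearest to the line at 0 in 16 of the 21 members, and Ugt1a1, Ugt1a5 and Sult1e1 show the widest spread.

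Another set of library factors moved the median log2 difference of all genes of the table by −0.66 (median of ratios), −0.30 (table total) or 0.04 (table total without the genes of the mitochondrial genome). Every member kept its direction under each of them. With the median of ratios, 15 of the 21 members had an unadjusted p-value under 0.05 in limma, against 70.4% of the table. The others were all higher members. Their adjusted p-values in limma were 0.077 for Sult1d1, 0.129 for Ces1b, 0.194 for Gstt2, 0.239 for Adh7, 0.388 for Sult1c2 and 0.432 for Ugt2b5. These rises thus depended on the library factors. With the median of ratios, 3 members rose and 10 fell past the threshold, against 3 and 4 with the deposited factors, and the table went from 591 higher and 263 lower calls to 236 and 1031, so the balance of calls moved with the scaling over the whole table.

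**Figure D5:**
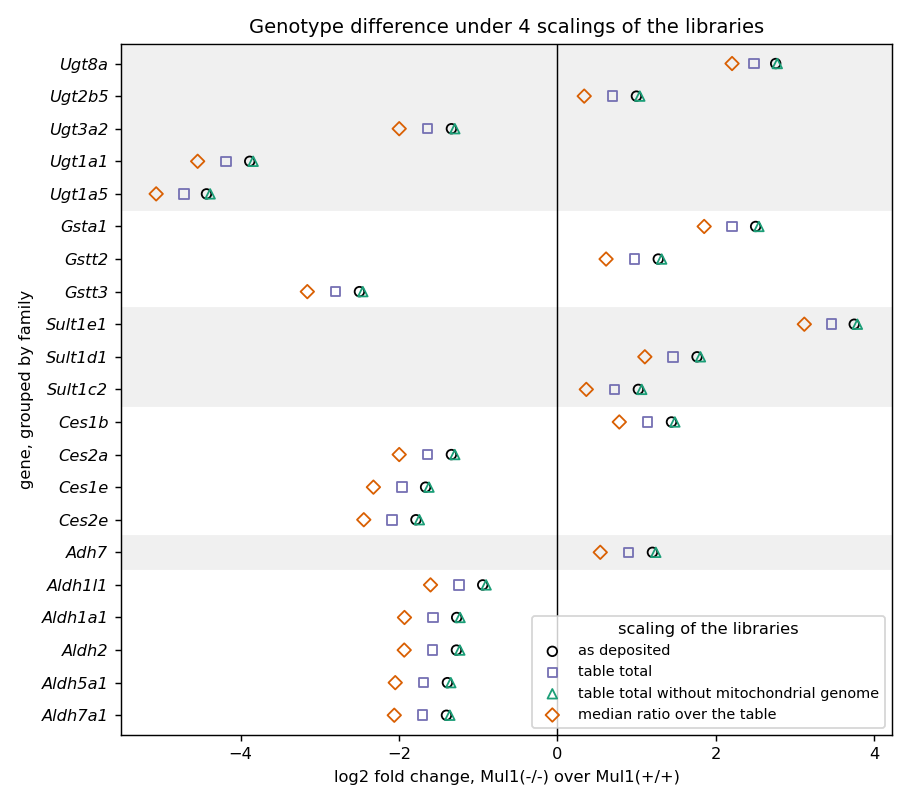
Log2 fold change of each member under the deposited library factors and under 3 other sets of factors. Points of a gene shift together along the axis and stay on the same side of 0.

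The deposited table also holds genes that regulate or supply these enzymes, which were counted from gene lists. Over all 3542 genes, 56.8% were higher, 43.2% were lower and 24.1% were called. Whether the counts of a list depart from these shares was not tested. Of 34 listed receptors and transcription factors of drug metabolism, the table held 6, all of them lower, and the 1 call was Ppara, the fatty acid receptor (log2 fold change −1.71, adjusted p = 0.00977). Hnf4a (−1.81, adjusted p = 0.0135), a hepatocyte factor for many of these families, and Rxra (−1.48, adjusted p = 0.0118), the partner of PPAR, CAR and PXR, did not pass in limma. Cebpa (−1.19), Nr5a2 (−1.14) and Stat5b (−1.02), further regulators of liver genes, did not pass either. Of 25 NRF2 targets outside the families, the table held 5, of which 4 were higher and 1 lower, and the 1 call was the carbonyl reductase Cbr3 (log2 fold change 2.66, adjusted p = 0.00697). Of 15 genes listed for the supply of donor molecules, the table held 7, of which 3 were higher and 4 lower. These counts include the sulfatase Sulf2 and the acetyl-CoA transporter Slc33a1, which do not supply a donor of the families described here. The 1 call was Papss1, which makes the sulfate donor PAPS (log2 fold change −1.60, adjusted p = 0.00909), so this gene fell while the sulfotransferase Sult1e1 rose. Without passing the threshold, Papss2, the second PAPS synthase, had a log2 fold change of −1.26, the sulfate transporter Slc26a1 −1.49 and the sulfatase Sulf2 −1.08, the last with groups that overlapped. Ugp2, which makes UDP-glucose, had 1.09, as did Slc35b3, a PAPS transporter of the Golgi, and Slc33a1, an acetyl-CoA transporter, had 1.07, with groups that overlapped.

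Of 39 other detoxification enzymes, the table held 8, of which 2 were higher and 6 lower, with 0 calls in limma, 8 unadjusted p-values under 0.05 and 4 calls by limma-trend. Cbr1, 1 of the 2 higher, was also counted among the NRF2 targets. The liver zone lists gave 1 higher and 2 lower genes of 18 perivenous ones and 2 lower genes of 17 periportal ones, with 0 calls in limma in each, unadjusted p-values under 0.05 for 3 and 2 genes, and 2 calls in each by limma-trend. Of all 3542 genes, 24.1% were called in limma, 96.4% had such a p-value and 52.8% were called by limma-trend. Several of the families differ between male and female liver, and of 24 male-biased genes 3 were higher and 4 lower, with 1 call each way. Of 28 female-biased genes 2 were higher and 4 lower, also with 1 call each way. Calls of higher genes made up 16.7% of all 3542 genes and calls of lower genes 7.43%. The 6 listed sex-linked transcripts were not in the table, and the part of donor sex in the values of the members was not tested.

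Among the cell type markers in the table, Epcam and Spp1 of bile duct lining cells rose past the threshold and 0 markers of the other lists passed in limma. In either direction, 24.1% of all 3542 genes passed. By limma-trend, 2 bile duct, 1 hepatocyte, 2 stellate and 1 red blood cell marker were called, and 0 endothelial and 0 macrophage markers, against 52.8% of the table. Of 10 hepatocyte markers 2 were in the table, Tat and Hnf4a, both lower, and Hnf4a was also counted among the regulators above. Their sum was 60281 to 95937 in Mul1(+/+) and 25149 to 31946 in Mul1(-/-). Of 8 cholangiocyte markers 5 were in the table, all higher, 2 of them called, with a sum of 1316 to 1930 in Mul1(+/+) and 4949 to 5234 in Mul1(-/-). Most of this sum was Spp1, with 1109, 1645 and 1156 in Mul1(+/+) and 3336, 4304 and 4613 in Mul1(-/-). The single macrophage marker, Lyz2, had groups that overlapped, and all of these markers had an unadjusted p-value under 0.05, as did 96.4% of the table. The sums were 4314 to 5241 and 8482 to 28580 for 2 of 8 stellate markers, and 2191 to 3954 and 3632 to 10277 for 1 of 8 macrophage markers. They were 5145 to 5728 and 1875 to 3020 for 3 of 8 endothelial markers and 5052 to 7563 and 803 to 4287 for 1 of 5 red blood cell markers. No marker in the table was at 0 in any library, and the part of cell composition in the members' values was not tested.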

How the data were processed

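Liver mRNA of 3 Mul1(+/+) and 3 Mul1(-/-) mice on HFD was sequenced, and the libraries were made and analysed by GENEWIZ. The authors deposited 1 table of 3542 genes, whose library columns hold read counts divided by 1 factor per library, beside the fold changes and p-values of their DESeq2 Wald test, which were not used. The aligner, counting software, strand setting and genome build are not given in the sources used here. Of the deposited values under 10000, 100% were whole multiples of 1 read within 0.1 read.

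The value of 1 read served to give reads per gene. limma 3.58.1 (R 4.3.3) was fitted to log2(value + 1) of all 3542 genes with genotype as the only term and no filter, and Benjamini-Hochberg adjustment was made over these genes. On this scale the change of genes with few reads is understated. The threshold (adjusted p-value below 0.01, log2 fold change beyond 1 in either direction) is that of the study's methods. The fit was also run on simulated data in which most genes were unchanged. Because this table holds only genes selected as changed, that run does not show how the calls behave here. Other steps used Python 3.11.15 with pandas 2.3.3 and numpy 2.4.6, scipy 1.17.1 for exact tests, and matplotlib 3.10.9 for plots.

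All 21 members were described, and their identifiers were matched to GENCODE M21 on GRCm38 for positions, lengths and shared 50-base stretches. Promoter sequences are from RefSeq. The members and gene lists were chosen with earlier results of these data known. Of the other lists, every regulator and donor supply gene in the table and at most the 5 largest changes of each list could be named, and 1 item is not reported here. Alternatives were other pseudocounts, a filter on the mean, other library factors, limma-trend, a looser threshold, a replicate block and each library left out.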

Additional observations from a re-analysis of the deposited data

How the results depend on the processing

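Under the alternatives run, no member reversed its direction. Only other library factors could have reversed one, because the groups of each member did not overlap. Of the members' values under the alternatives, 251 kept their side of the threshold, 46 passed it newly and 38 no longer passed it. Against 3 members called higher and 4 lower, and 591 and 263 genes of the table, limma-trend called 6 and 10 members and 964 and 905 genes, and a threshold of adjusted p under 0.05 gave 8 and 11 members and 1877 and 1503 genes. A pseudocount of 10 gave 8 members called lower and 680 genes called lower, and a pseudocount of 0.5 gave 172 genes called lower. A mean of at least 50 gave 620 genes called lower. The median of ratios gave 10 members called lower, 236 genes called higher and 1031 called lower, the table total 724 genes called lower and the table total without mitochondrial genes 171. With 1 library left out, 0 to 5 members were called higher and 0 to 11 lower, and 9 to 1595 genes higher and 1 to 1078 lower. The cause of these shifts was not tested. With the replicate number as a block, 0 members and 0 genes were called in limma, while 21 members and 3314 genes had an unadjusted p-value under 0.05. Deviations of libraries with the same number correlated at 0.02, 0.35 and 0.05, and the labels tie no number to a litter or day, so the numbers were not taken as pairs. The planned quasi-likelihood test on recovered reads was not run with either set of library factors. Ugt8a had no value under the filter on the mean. Ugt8a and Sult1e1 rest on few reads in Mul1(+/+), which limits how precisely their folds are known, and library totals were not used here.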

Other observations

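Of 33 listed genes of glutathione synthesis and use, the table held 12, of which 8 were higher and 4 lower in Mul1(-/-), against 56.8% and 43.2% of the table, and 3 passed the threshold, against 24.1% of the table. Hpgds, the glutathione-dependent prostaglandin D synthase, rose from 33.7, 36.3 and 39.2 to 216, 213 and 102 (log2 fold change 2.17, adjusted p = 0.00692 in limma), and Gpx7, a peroxidase of the endoplasmic reticulum, rose from 48.0, 92.1 and 29.4 to 168, 194 and 258 (1.98, adjusted p = 0.00933 in limma). Cbs, which channels homocysteine toward cysteine, fell from 34130.1, 16246 and 29295 to 5716, 3689 and 9809 (−2.10, adjusted p = 0.00855 in limma). Mgst2 had a log2 fold change of 3.02 and Gpx4 of 1.78 without passing the threshold.

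Of 25 listed transporters of conjugates and bile acids, the table held 6. Of these 2 were higher and 4 lower, against 56.8% and 43.2% of the table. The threshold was passed by 2, against 24.1% of the table. Slc51b, a subunit of the basolateral bile acid exporter, rose from 27.0, 7.97 and 6.53 to 65.8, 45.3 and 58.0 (log2 fold change 2.20, adjusted p = 0.00916 in limma). Its control values stand for 32, 9 and 8 reads, which are few and uneven. The uptake carrier Slco2b1 fell from 11905, 6707 and 8435 to 2749.9, 2582 and 3178 (log2 fold change −1.63, adjusted p = 0.00939 in limma).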
